A study of Rattus norvegicus with 56 samples.

Results

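The endocannabinoid genes described here are the cannabinoid receptor gene Cnr1, the synthesis enzyme genes Dagla, Daglb and Napepld, and the breakdown enzyme genes Faah, Mgll and Abhd6. Members were all probe sets of the deposited table whose symbol in the array annotation equals one of these 7 names. That gave 12 probe sets for 5 genes, out of 31042 probe sets that are not controls and 14224 genes with a probe set of their own: 2 for Cnr1, 2 for Daglb, 2 for Faah, 4 for Mgll and 2 for Abhd6. No probe set carries the symbol Dagla or Napepld alone, and neither gene was analysed here. The 2 Faah probe sets list the symbol under 2 gene numbers, of which 1 is in the RefSeq gene table used here.

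Array signals came from RNA of the dorsal striatum of 56 male Crl:OFA (Sprague Dawley) rats, with 1 array per rat and 7 rats in each of 8 groups. Lesioned rats had lost nigral dopamine neurons on both sides after an AAV vector carrying alpha-synuclein, and sham rats had received that vector with GFP in its place. Within each arm, rats were given L-dopa methyl ester with benserazide (50 mg/kg L-dopa methyl ester daily) or saline from 5 weeks after surgery for 3 weeks. They were then conditioned to place with pramipexole, a D2/D3 dopamine receptor agonist (2 mg/kg), or with saline, and killed 24 or 48 hours after the last injection. The 4 groups of each arm are called here by the drugs they received: neither drug, pramipexole, L-dopa, or both drugs. All 56 rats thus carried an AAV vector and went through conditioning. The vector's promoter, each rat's neuron loss and which rats were killed at which hour are not given in the sources used here.

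Endocannabinoids are lipids that neurons make on demand from their membranes and that act backwards across the synapse. In the striatum, medium spiny neurons release 2-arachidonoylglycerol, and the CB1 receptor on the incoming terminals of cortical and inhibitory neurons then lowers transmitter release. Diacylglycerol lipases make this lipid, and monoacylglycerol lipase and ABHD6 degrade it. Anandamide, the other main endocannabinoid, is degraded by fatty acid amide hydrolase. Plasticity at cortical inputs to the dorsal striatum that depends on this system is known to depend on dopamine receptors too.

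The median log2 signal per array was 5.62 to 5.82. Arrays 1 to 37 and 38 to 56 form 2 sets that are known to differ. The first holds every lesioned rat and the sham group that received both drugs. Each drug difference was therefore taken inside 1 set, and the sham rats given L-dopa were divided into rats 36 and 37 and rats 38 to 42. The difference between lesioned and sham rats lies inside 1 set for rats given both drugs (7 against 7) and, for L-dopa alone, only against sham rats 36 and 37. Rat 2, lesioned and given both drugs, stood apart in microglia markers: its summed signal of the 6 tested markers was 8930, against at most 1690 in any other rat. Choroid plexus markers, 2 of them tested, were uneven too. Their summed signal reached 6320 in lesioned rats given both drugs (rat 7) and 1940 in lesioned rats given neither (rat 27). It was at most 254 in the other groups. Markers of the labelled tissue were high: 9 of 10 medium spiny neuron markers had a probe set, all 9 were tested, and Penk (mean log2 signal 12.20), Drd1 (10.80) and Drd2 (9.66) were above the 94th percentile of probe sets. Of 7 cortical markers with a probe set, 5 were tested. The mean log2 signals of the 7 spanned nearly the whole range of the array, from Sv2b at 12.2 (percentile 99.8 of probe sets) and Nrgn at 10.0 (96.3), through Neurod6 (7.46), Slc17a7 (6.94) and Neurod2 (6.34), to Rasgrf2 at 4.94 and Tbr1 at 1.45 (4.78), the last 2 not tested.

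None of the 12 endocannabinoid probe sets was called in any of the 14 comparisons (limma, Benjamini-Hochberg adjusted p under 0.05 over 18625 tested probe sets). The smallest adjusted p was 0.137. Few other genes passed either: the share of all tested probe sets called was 0.0215% for both drugs against neither in lesioned rats, 0.0161% for L-dopa alone in lesioned rats, 0.0161% for pramipexole in lesioned rats given L-dopa, 0.00537% for L-dopa in lesioned rats averaged over both conditionings, and 0% in the other 10 comparisons. Of the 168 pairs of probe set and comparison, 20 had an unadjusted p under 0.05. Over all tested probe sets, the share under that p ran from 3.44% to 12.8% in the 14 comparisons. The 168 pairs are not independent, because comparisons share groups and several probe sets measure the same gene. Whether 20 is more than the background gives was not tested. All 12 probe sets passed the filter on low signals. On the log2 scale, the 95% intervals of a difference between 7 and 7 rats reached from 0.16 to 0.35 on either side of it. The reach depended on the probe set, and smaller changes could not be resolved here. These intervals are not adjusted for the 18625 probe sets tested, so larger changes could also go uncalled. An example is Mgll 1375247_at with L-dopa alone in lesioned rats, at 0.32 (limma, adjusted p = 0.137). All values that are described as higher or lower are therefore measured differences that did not pass the adjusted threshold.

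Cnr1 encodes the CB1 receptor. Its brighter probe set, 1369677_at, had its highest mean in lesioned rats given neither drug. In those 7 rats the log2 signal ran from 11.04 through a median of 11.28 to 11.40. With L-dopa the lowest, median and highest values of lesioned rats were 10.41, 11.00 and 11.37, with pramipexole 10.77, 10.87 and 11.21, and with both drugs 10.64, 10.99 and 11.13. The drug-free lesioned rats lay at the upper end, and each drug group overlapped them. Group means in order were 11.22 ± 0.13 (SD, n = 7) in lesioned rats given neither drug, 11.13 ± 0.20 in sham rats given L-dopa, 11.09 ± 0.31 in sham rats given neither, and 10.99 ± 0.18 in sham rats given both. Then came lesioned rats given L-dopa (10.97 ± 0.29), pramipexole (10.94 ± 0.16) or both (10.94 ± 0.17), and last sham rats given pramipexole (10.89 ± 0.31). Every 2 neighbours in this order lay closer together than either group's SD. The means at its ends were 0.33 apart, but the ranges of these groups overlap (11.04 to 11.40 and 10.36 to 11.30). The end groups lie in different array sets and were not compared by a test.

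Against lesioned rats given neither drug, Cnr1 at 1369677_at differed by -0.26 ± 0.12 (SE) with L-dopa, -0.28 ± 0.12 with pramipexole and -0.28 ± 0.12 with both. On the linear scale these are changes of -16.3%, -17.6% and -17.9%, with limma adjusted p-values of 0.36, 0.663 and 0.334. Of the 7 rats in each drug group, 6, 7 and 7 lay below the mean of the drug-free group. The 3 comparisons share the same 7 drug-free rats, so one high group enters all of them. Without rat 10, 1 of the lesioned rats given L-dopa, the first difference was -0.16. Among lesioned rats later conditioned with pramipexole, those given L-dopa differed by -0.01 ± 0.12. Among those given L-dopa, pramipexole made a difference of -0.03 ± 0.12.

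**Figure D1:**
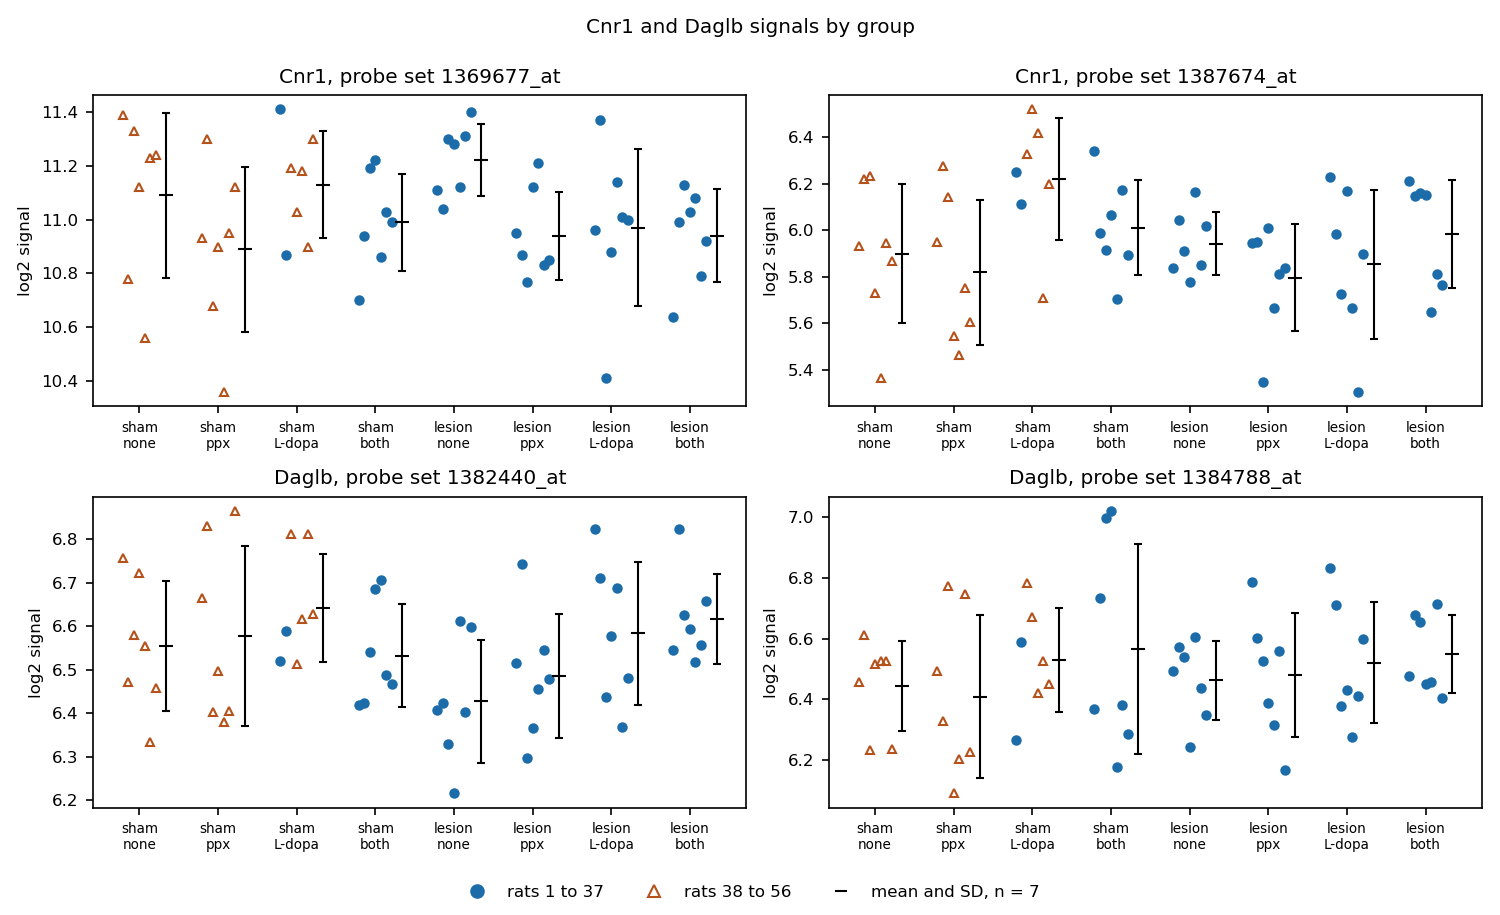
Log2 signal (vertical axis) of the 2 Cnr1 and the 2 Daglb probe sets in each of the 56 rats, by group; "none" is neither drug, "ppx" pramipexole and "both" L-dopa and pramipexole. Filled circles are rats 1 to 37, open triangles rats 38 to 56, and bars the mean ± SD of 7 rats. Cnr1 1369677_at lies between 11.04 and 11.40 in lesioned rats given neither drug and reaches down to 10.41 with L-dopa.

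At Cnr1 1369677_at, but not at the second Cnr1 probe set, pramipexole went with a lower mean on each of the 4 backgrounds tested. In sham rats given no L-dopa, the signal ran from 10.56 through 11.23 to 11.39 without pramipexole and from 10.36 through 10.93 to 11.30 with it. The ranges largely coincide, and the difference was -0.20 ± 0.12 (limma, adjusted p = 0.843). Sham rats given both drugs were 0.15 below the mean of rats 36 and 37, which received L-dopa alone and measured 11.41 and 10.87. Averaged over the 3 backgrounds with 7 rats on each side, a comparison added after the values were seen, the difference was -0.17 ± 0.07 (limma, adjusted p = 0.812). In that average 0 of the 12 probe sets were called, against 0.00537% of all, and 1 (8.33%) had an unadjusted p under 0.05, against 6.07%. The pramipexole difference of lesioned rats differed from that of sham rats by -0.08 ± 0.17, less than its SE.

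The second Cnr1 probe set, 1387674_at, ordered the groups differently. Its drug-free lesioned rats (5.78, 5.91 and 6.16 as lowest, median and highest) lay in the middle of the order, and its highest mean was 6.22 ± 0.26 in sham rats given L-dopa. It stood 0.21 above the next mean (6.01 ± 0.21 in sham rats given both drugs), less than its own SD. In sham rats of the second array set, L-dopa made a difference of 0.34 ± 0.15 (limma, adjusted p = 0.687), with 5.71, 6.33 and 6.52 as lowest, median and highest of 5 treated rats and 5.37, 5.93 and 6.23 in the 7 others. In lesioned rats the L-dopa difference was -0.09 ± 0.14, and the 2 L-dopa differences were apart by -0.42 ± 0.20 (limma, adjusted p = 0.795). With pramipexole the mean of 1387674_at was higher in lesioned rats given L-dopa (5.98 against 5.85). It was lower without L-dopa, in lesioned rats (5.80 against 5.94) and in sham rats (5.82 against 5.90). Sham rats given both drugs averaged 6.01, against 6.18 in the sham rats of the first array set given L-dopa alone. After subtracting group means, the 2 Cnr1 probe sets correlated over 56 rats at r = 0.236 (rho = 0.116, adjusted permutation p = 0.17 and 0.43), so the 2 readings of this gene did not follow each other closely.

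Daglb encodes one of the 2 diacylglycerol lipases that make 2-arachidonoylglycerol. At probe set 1382440_at its lowest group mean was in lesioned rats given neither drug, where the signal ran from 6.22 through 6.41 to 6.61. It ran from 6.37 through 6.58 to 6.82 with L-dopa, from 6.30 through 6.48 to 6.74 with pramipexole, and from 6.52 through 6.59 to 6.82 with both drugs. The groups overlap, with all 7 rats given both drugs above the drug-free mean. Averaged over both conditionings, the L-dopa difference in lesioned rats was 0.14 ± 0.06 (limma, adjusted p = 0.358). It was 0.16 ± 0.08 without pramipexole and 0.13 ± 0.08 with it, and 0.12 ± 0.09 in sham rats of the second set. Over these 3 backgrounds, again a comparison added later, the mean was 0.14 ± 0.05 (limma, adjusted p = 0.24), or 9.97% higher signal. That average called 0 of the 12 probe sets against 0.0376% of all, and 2 (16.7%, Daglb 1382440_at and Mgll 1375247_at) had an unadjusted p under 0.05 against 11.3%. The second Daglb probe set, 1384788_at, gave 0.09 ± 0.07 for the same average, and its 8 group means lay within 0.16 of each other. The 2 Daglb probe sets correlated at r = 0.124 within groups.

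Mgll encodes monoacylglycerol lipase, the enzyme that removes most 2-arachidonoylglycerol in brain. Its 3 brighter probe sets were all lower in lesioned rats given neither drug than in the 3 other lesioned groups. At 1375247_at the drug-free lesioned rats ran from 8.16 through 8.27 to 8.48, the lowest of all 8 group means (8.26 ± 0.12, n = 7). Lesioned rats given L-dopa ran from 8.39 through 8.51 to 8.90, those given pramipexole from 8.28 through 8.55 to 8.69, and those given both from 8.34 through 8.45 to 8.80. All 7 rats of each drug group lay above the drug-free mean, while the ranges overlapped. The 4 sham means lay between 8.36 and 8.43.

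Probe set 1388644_at repeated this order, with drug-free lesioned rats lowest (7.90, 8.11 and 8.24 as lowest, median and highest) and lesioned rats given L-dopa highest (8.27, 8.35 and 8.85). These 2 groups did not overlap, as was the case for 0.311% of all tested probe sets in this comparison. The lesioned L-dopa mean of 8.43 ± 0.20 stood 0.15 above the next, the drug-free sham mean of 8.29 ± 0.15, which is within its own SD. At 1370831_at, the brightest Mgll probe set, the drug-free lesioned rats ran from 9.30 through 9.50 to 9.83 and the lesioned L-dopa rats from 9.67 through 9.77 to 10.16. There, however, 3 of the 4 sham groups had means below the drug-free lesioned rats (9.46 to 9.51 against 9.54). The dim probe set 1375355_at had means between 5.63 and 5.84. Its drug-free lesioned mean (5.69 ± 0.28) was likewise the lowest of the 4 lesioned means, the others being 5.73 to 5.79 and within its SD, and the sham group given both drugs lay lower still (5.63 ± 0.26).

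**Figure D2:**
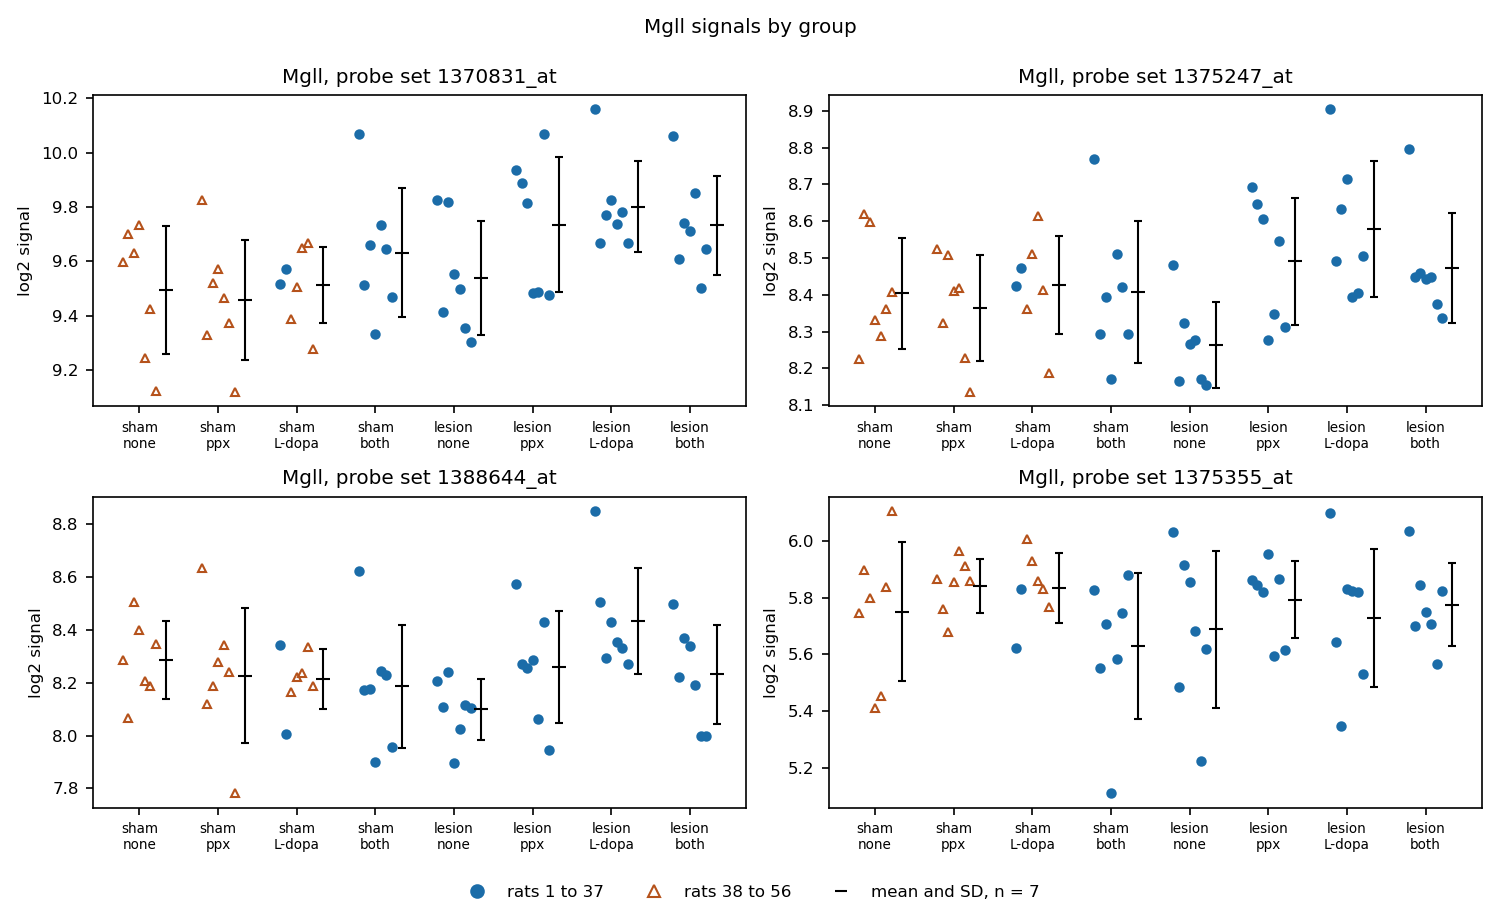
Log2 signal of the 4 Mgll probe sets in each rat, by group, with symbols for the 2 array sets and mean ± SD of 7 rats. At 1388644_at all lesioned rats given L-dopa (8.27 or more) lie above all lesioned rats given neither drug (8.24 or less).

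L-dopa alone in lesioned rats gave the largest Mgll differences: 0.32 ± 0.08 at 1375247_at (24.4% higher), 0.33 ± 0.10 at 1388644_at (26.0%) and 0.26 ± 0.11 at 1370831_at (20.0%). Their limma adjusted p-values were 0.137, 0.169 and 0.291. In this comparison 4 of the 12 endocannabinoid probe sets (33.3%) had an unadjusted p under 0.05, these 3 and Cnr1 1369677_at, against 12.8% of all tested probe sets. Pramipexole alone gave 0.23 ± 0.08, 0.16 ± 0.10 and 0.20 ± 0.11 at the same 3 probe sets, with a limma adjusted p of 0.611 for the first. There 2 of 12 probe sets (16.7%) had an unadjusted p under 0.05, against 7.08% overall. Both drugs together gave 0.21 ± 0.08, 0.13 ± 0.10 and 0.19 ± 0.11, with 3 of 12 (25.0%) under that p against 12.4% overall. All 3 comparisons use the same drug-free rats.

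Given together, the drugs gave less than the sum of their single differences for Mgll. The interaction was -0.33 ± 0.12 at 1375247_at (limma, adjusted p = 0.621) and -0.36 ± 0.14 at 1388644_at (limma, adjusted p = 0.701), the 2 of 12 probe sets (16.7%) with an unadjusted p under 0.05, against 6.98% overall. Among lesioned rats later conditioned with pramipexole, the L-dopa difference was -0.02 ± 0.08 at 1375247_at, and 0 of 12 probe sets passed the unadjusted threshold, against 5.04% overall. In sham rats of the second set the L-dopa difference at 1375247_at was 0.01 ± 0.09. The lesioned and sham L-dopa differences were apart by 0.30 ± 0.13 at 1375247_at (limma, adjusted p = 0.743) and by 0.39 ± 0.15 at 1388644_at (limma, adjusted p = 0.693), and 3 of 12 probe sets (25.0%) had an unadjusted p under 0.05 against 6.07% overall. The drug-free sham group and the drug-free lesioned group that enter this contrast lie in different array sets. They also differ in a measure of RNA quality, the 3′ minus 5′ signal (mean 1.06 against 0.87 log2), and with it as a covariate the values were 0.14 (limma, adjusted p = 0.986) and 0.21 (limma, adjusted p = 0.968). With the same covariate the interaction was also smaller, at -0.23 for 1375247_at and -0.25 for 1388644_at (limma, adjusted p = 0.917 for each).

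**Figure D3:**
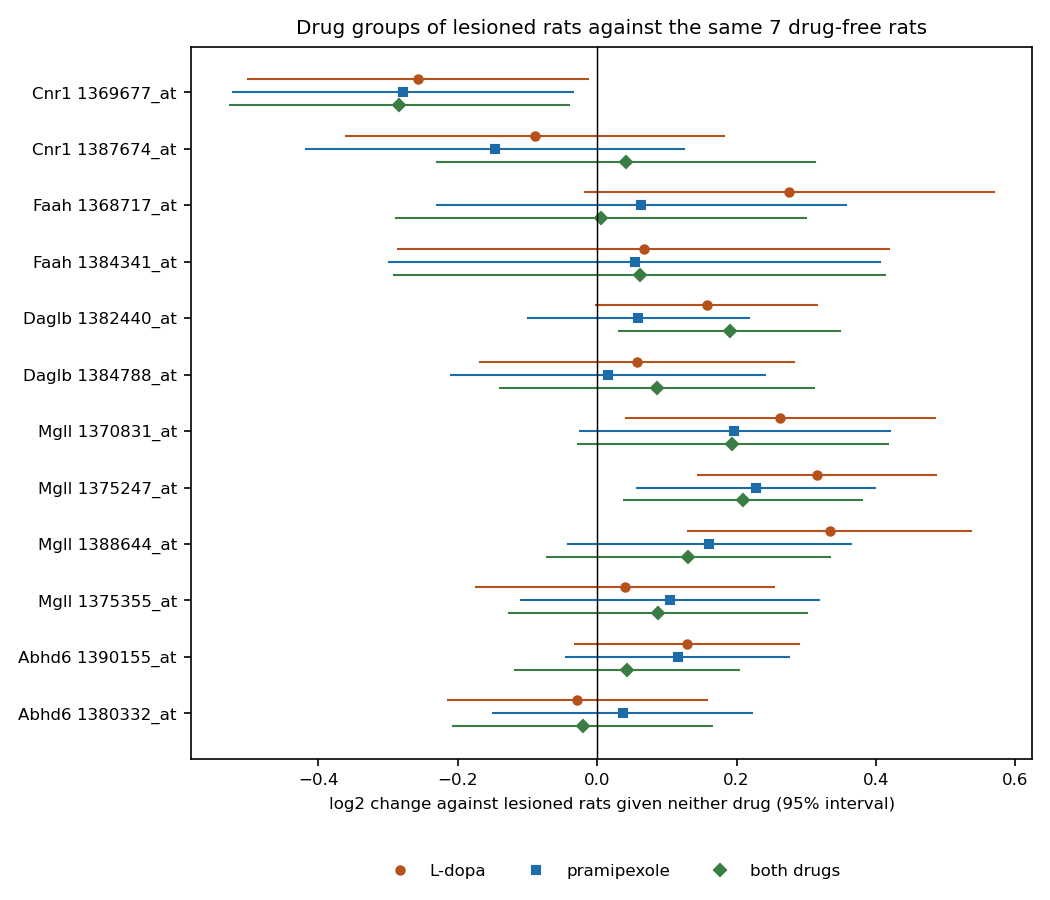
Log2 difference of the 12 probe sets (horizontal axis, with 95% intervals) between lesioned rats given L-dopa, pramipexole or both and the same 7 lesioned rats given neither drug. Cnr1 1369677_at lies between -0.28 and -0.26 and the 3 brighter Mgll probe sets between 0.13 and 0.33 in the 3 comparisons, and none passes the adjusted threshold.

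This measure of RNA quality moved with the drug groups of lesioned rats too. The 3′ minus 5′ signal of the control genes beta-actin and GAPDH (log2) ran from 0.68 to 0.98 in lesioned rats given neither drug and from 0.97 to 1.25 in lesioned rats given L-dopa, with 0.83 to 1.07 for pramipexole and 0.96 to 1.19 for both. With this measure as a covariate, the L-dopa difference was 0.14 at Mgll 1375247_at (limma, adjusted p = 0.87), 0.14 at 1388644_at (adjusted p = 0.89), 0.0026 at 1370831_at (adjusted p = 0.999) and -0.12 at Cnr1 1369677_at (adjusted p = 0.928). For both drugs the same 4 values were 0.07, -0.02, -0.01 and -0.18. Here 2 of the 3 Mgll differences were negative but smaller in size than their SEs of 0.102 and 0.105. For pramipexole alone the 4 values were 0.16, 0.09, 0.10 and -0.23. Summed signals of the 5 tested cortical markers ran from 4330 to 7350 in drug-free lesioned rats and from 4860 to 8360 in lesioned L-dopa rats. All 5 were higher with L-dopa, by a median of 0.49, with none called and 2 of 5 (40%) under an unadjusted p of 0.05. With the cortical marker score as a covariate, the same 4 differences were 0.21, 0.21, 0.07 and -0.20 (limma, adjusted p = 0.433, 0.52, 0.863 and 0.653). All 9 medium spiny neuron markers were lower in lesioned L-dopa rats, none of them called, with a median difference of -0.18, and with that score as a covariate the 4 differences were 0.23, 0.28, 0.15 and -0.17. The choroid plexus score averaged 0.39 in drug-free lesioned rats and -0.80 in lesioned L-dopa rats, and no fit used it as a covariate. The part of RNA quality and tissue makeup in the Mgll and Cnr1 differences was not tested beyond these fits. In bulk tissue, fewer cells of a type and less RNA per cell cannot be told apart.

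Faah encodes fatty acid amide hydrolase, the main enzyme that degrades anandamide. Its brighter probe set, 1368717_at, ran from 5.36 through 5.76 to 6.48 in lesioned rats given neither drug, and from 5.70 through 6.21 to 6.54 with L-dopa. With pramipexole it ran from 5.69 through 5.91 to 6.22, and with both drugs from 5.56 through 5.83 to 6.25. The L-dopa group had the highest mean of all 8, but its range lay almost wholly inside that of the drug-free rats. L-dopa alone differed by 0.28 ± 0.15 (limma, adjusted p = 0.422), and adding pramipexole to it by -0.27 ± 0.15 (limma, adjusted p = 0.852). In that last comparison 0 of the 12 endocannabinoid probe sets had an unadjusted p under 0.05, against 5.82% overall. At the dimmer 1384341_at, the lesioned means lay between 5.32 and 5.38, and in sham rats without L-dopa pramipexole differed by -0.32 ± 0.18 (limma, adjusted p = 0.816), with 0 of 12 probe sets under the unadjusted threshold against 6.32% overall. Residual SDs of the Faah probe sets were 0.28 and 0.34, the rat-to-rat spread within groups, against a median of 0.18 over all tested probe sets.

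Abhd6 encodes a serine hydrolase on the postsynaptic side that degrades a further part of 2-arachidonoylglycerol. At 1390155_at all 4 sham means (8.54 to 8.70) exceeded all 4 lesioned means (8.33 to 8.46). Array set and lesion cannot be told apart in most of this contrast: the mean was 8.61 ± 0.17 over the 19 rats of the second set and 8.43 ± 0.15 over the 37 of the first. Among sham rats given L-dopa alone, rats 36 and 37 of the first set measured 8.38 and 8.44, and the 5 rats of the second set 8.53 to 8.67. Inside the first set, rats given both drugs ran from 8.21 through 8.36 to 8.55 when lesioned and from 8.38 through 8.51 to 8.84 when sham. The groups overlap, with 6 of 7 lesioned rats below the sham mean, and the difference was -0.18 ± 0.08 (limma, adjusted p = 0.696). It was the 1 of 12 probe sets (8.33%) with an unadjusted p under 0.05 in this lesion comparison, against 6.79% of all tested probe sets. Without rat 2 the difference was -0.16. It was smallest, at -0.13, without rat 34, a sham rat given both drugs. For L-dopa alone the direction was the opposite inside this set: the mean was 8.46 in the 7 lesioned rats and 8.41 in sham rats 36 and 37, a difference of 0.05 ± 0.12 in a comparison added after the values were seen (limma, adjusted p = 1). The other Abhd6 probe set, 1380332_at, differed by -0.02 ± 0.09 in rats given both drugs. For pramipexole in sham rats without L-dopa, 1390155_at differed by 0.16 ± 0.08 and 1380332_at by 0.17 ± 0.09 (limma, adjusted p = 0.792 and 0.812).

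**Figure D4:**
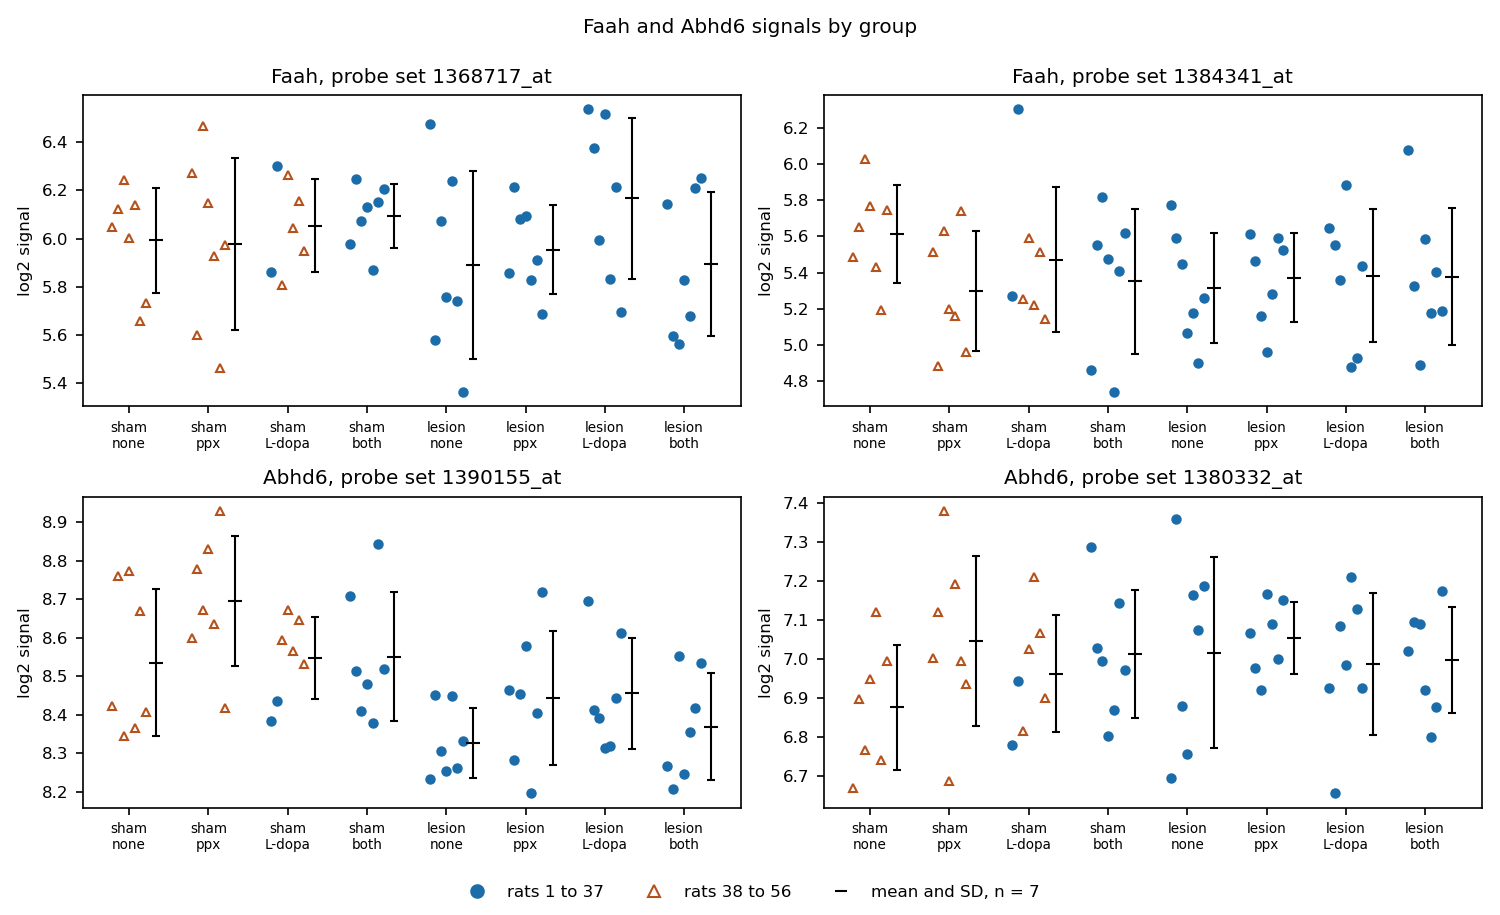
Log2 signal of the 2 Faah and the 2 Abhd6 probe sets in each rat, by group, with symbols for the 2 array sets and mean ± SD of 7 rats. Abhd6 1390155_at averages 8.61 in rats 38 to 56 (triangles) and 8.43 in rats 1 to 37 (circles), and both Faah probe sets scatter widely within groups.

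Counts at the unadjusted threshold in the other comparisons were as follows. Pramipexole averaged over both lesioned treatments gave 0 of 12 with an unadjusted p under 0.05, against 6.37% of all probe sets. Pramipexole in sham rats given L-dopa, with only rats 36 and 37 on one side, also gave 0 of 12, against 3.44%. L-dopa in sham rats gave 1 of 12 (8.33%, Cnr1 1387674_at) against 6.64%. L-dopa averaged over both lesioned conditionings gave 3 of 12 (25.0%, Daglb 1382440_at and Mgll 1375247_at and 1388644_at) against 10.3%. The difference of the pramipexole differences between lesioned and sham rats gave 1 of 12 (8.33%, Mgll 1375247_at at 0.27 ± 0.12, and 0.15 with the 3′ minus 5′ covariate) against 6.70%. Median differences of the 12 probe sets ran from -0.06 to 0.10 over the 14 comparisons, beside medians from -0.0049 to 0.015 over all tested probe sets.

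Rat-to-rat variation within groups linked some of these signals to each other and to cell type markers. The 3 brighter Mgll probe sets correlated pairwise at r = 0.795, 0.696 and 0.642 over the 56 rats after group means were subtracted (rho = 0.792, 0.595 and 0.548, adjusted permutation p of 1e-04 or below). Leaving out the 2 farthest rats gave r = 0.767, 0.628 and 0.546, and each r was positive in both array sets. The Faah pair correlated at r = 0.414 (rho = 0.42, adjusted permutation p = 0.0084 and 0.0065). For Abhd6 the pair gave r = 0.192 (adjusted permutation p = 0.19). Different genes were linked less: of 10 pairs of representative probe sets, none passed on both r and rho, and the closest was Mgll with Faah (r = 0.371, rho = 0.389, adjusted permutation p = 0.062 and 0.039).

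Against 9 scores per probe set (8 cell type marker lists and the 3′ minus 5′ signal), 17 of 108 pairs passed on both r and rho. Mgll 1370831_at was higher in rats with a higher cortical score (r = 0.661, rho = 0.667, both adjusted permutation p = 0.00054; r = 0.687 without the 2 farthest rats; 0.611 in the first array set and 0.773 in the second) and with a higher 3′ minus 5′ signal (r = 0.548, rho = 0.518, adjusted permutation p = 0.0017 and 0.0032). It was lower with a higher medium spiny neuron score (r = -0.507, rho = -0.53). With a higher choroid plexus score it was lower too (r = -0.415, rho = -0.562, adjusted permutation p = 0.012 and 0.0013). Faah 1368717_at was lower with a higher medium spiny neuron score (r = -0.691, rho = -0.62, both adjusted permutation p = 0.00054; -0.70 and -0.678 in the 2 sets). The same Faah probe set was higher with a higher cortical score (r = 0.581, rho = 0.535, adjusted permutation p = 0.0019 and 0.0032). With a higher interneuron score it was higher too (r = 0.431, rho = 0.455, adjusted permutation p = 0.036 and 0.016). That r was 0.556 in the first array set and 0.0734 in the second. Cnr1 1369677_at, unlike Faah, was higher with a higher medium spiny neuron score (r = 0.38, rho = 0.497, adjusted permutation p = 0.044 and 0.004). Its r was 0.284 and 0.597 in the 2 sets. The second Cnr1 probe set instead followed the endothelial and mural score (r = 0.56, rho = 0.552, adjusted permutation p = 0.0019 and 0.0017). This r was 0.719 in the first array set and 0.346 in the second. Signals of 1 rat share 1 dissection, labelling and array, and the correlations describe variation that the groups do not account for.

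**Figure D5:**
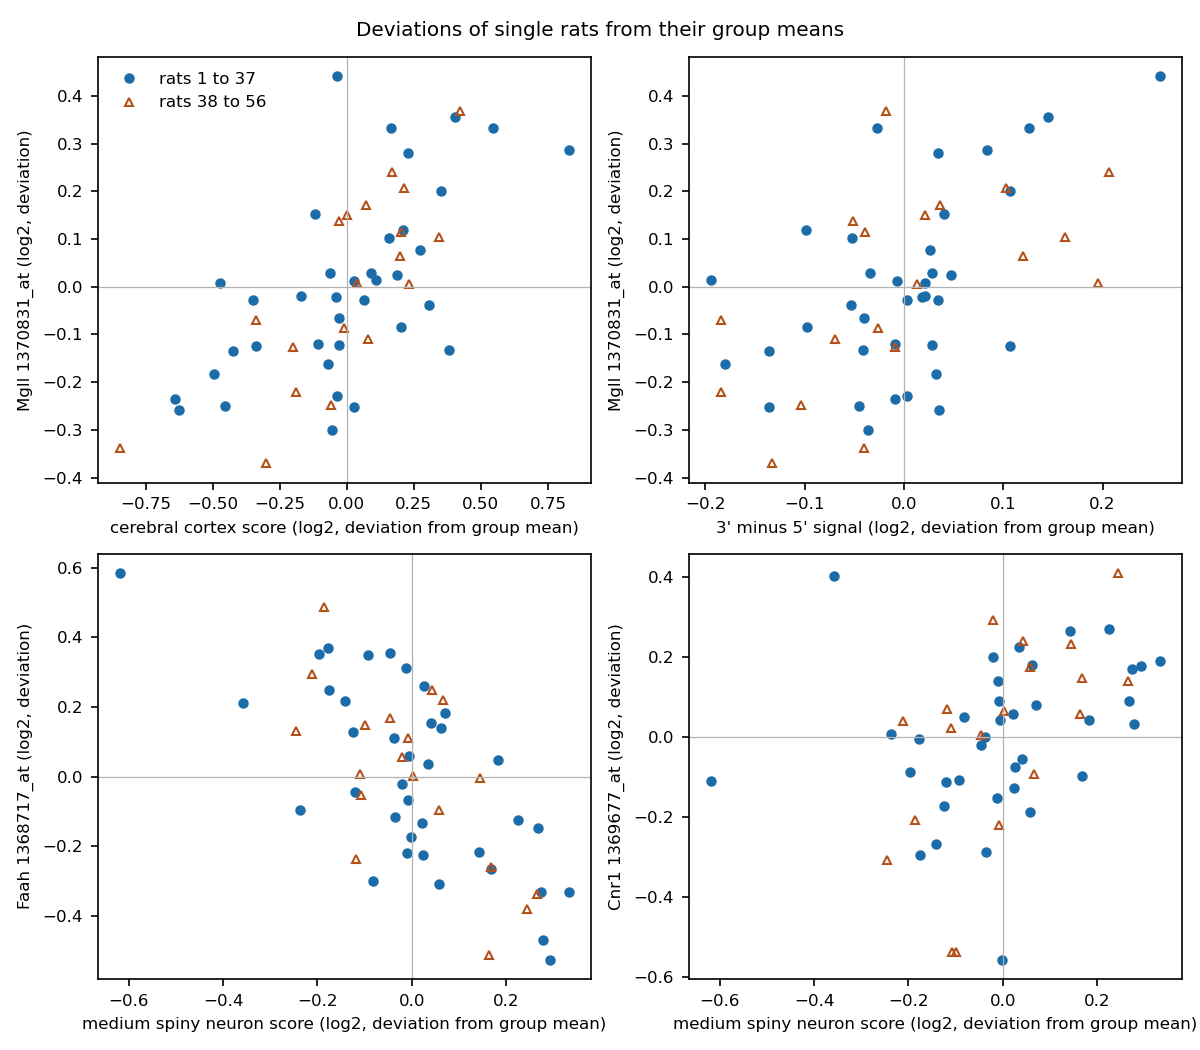
Deviations of single rats from their group means (log2), for Mgll against the cortical marker score and the 3′ minus 5′ signal, and for Faah and Cnr1 against the medium spiny neuron score; circles are rats 1 to 37 and triangles rats 38 to 56. Mgll climbs with the cortical score (r = 0.661) and Faah declines with the medium spiny neuron score (r = -0.691).

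The genes whose within-group pattern over the 56 rats was most like each member are a description. For Cnr1 1369677_at they were Coch (r = 0.655), Gpr155 (0.65) and Skil (0.633), and for Mgll 1370831_at Mapk11 (0.782), Scg3 (0.764) and Gng13 (0.754), among 13617 and 13615 probe sets of 1 symbol. Faah 1368717_at was most like Efr3a (0.727), Cavin3 (0.705) and Wdfy3 (0.703). Daglb 1382440_at and Abhd6 1390155_at had no such close companions, their best values being 0.497 with Trmu and 0.516 with Psph.

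Genes around the pathway were also followed. Of 33 other endocannabinoid genes, 26 had a probe set and 16 were tested, and none was called higher or lower in any of the 14 comparisons. The smallest unadjusted p belonged to Abhd12, another lipase that hydrolyses 2-arachidonoylglycerol, at 0.24 ± 0.07 for the lesion in rats given both drugs (limma, adjusted p = 0.397). Next was the lipid phosphatase gene Inpp5d, known for its expression in microglia and blood cells, at 0.36 ± 0.11 for L-dopa in lesioned rats averaged over both conditionings (limma, adjusted p = 0.259). All 6 tested microglia markers were higher in that comparison too, with a median of 0.21 and none called. Without rat 2, Inpp5d differed by 0.25 ± 0.09 (limma, adjusted p = 0.354) and the median of the microglia markers was 0.07, again with all 6 higher. Their part in the Inpp5d difference was not tested. Among 15 receptors and phospholipase C genes that lie upstream of 2-arachidonoylglycerol synthesis, 10 were tested and none was called. The serotonin receptor gene Htr2a differed by -0.53 ± 0.16 between lesioned rats given both drugs and neither (limma, adjusted p = 0.188), and the phospholipase C gene Plcb1 by -0.16 ± 0.06. Of 27 genes for G proteins, channels and other partners of the CB1 receptor, 18 were tested and none was called. With L-dopa alone in lesioned rats, 15 of these 18 were higher and 3 lower, with a median of 0.09 beside 0.0075 over all tested probe sets, and 2 of 18 (11.1%) had an unadjusted p under 0.05 against 12.8% overall. In sham rats L-dopa gave 16 of 18 higher, with a median of 0.14 beside 0.0032, and pramipexole without L-dopa 14 of 18, with a median of 0.06 beside 0.0029. Of all tested probe sets, 52.6%, 51.4% and 51.2% were higher in these 3 comparisons, in that order. Directions of this list in the other comparisons are not described here. Gnaz, which encodes the G protein subunit alpha z, differed by 0.25 ± 0.07 with L-dopa alone in lesioned rats (limma, adjusted p = 0.142). Grk2, which encodes a kinase that desensitizes receptors, differed by 0.31 ± 0.11 with L-dopa in sham rats (limma, adjusted p = 0.578).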

How the data were processed

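Total RNA (100 ng) was labelled with a 3′ IVT kit and hybridized to Affymetrix Rat230_2 arrays, per the labels' protocols, and signals were made with MAS5, per the submitters' processing notes. The values deposited by the authors are log2 signals. Unlogged, each array had a trimmed mean of about 150.04, so arrays had been scaled alike. They were used as deposited. Symbols came from the platform annotation. Of 31042 probe sets without controls, 18625 with a mean above the 40th percentile (4.99) were tested, and no detection calls were used.

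Group means (9, over all 56 arrays) were estimated with limma 3.58.1 in R 4.3.3, with the sham L-dopa group divided between arrays 37 and 38. Tests were two-sided, with Benjamini-Hochberg adjustment within a comparison. Of 16 comparisons, 14 were planned and 2 added. The lesion contrast against sham rats 36 and 37 was added later. It was computed for all member probe sets, of which 0 were called, and is described here for Abhd6 only. A score is the mean centred signal of a list's tested markers, 1 probe set per gene, the brightest. Correlations used 100000 permutations within groups. A gene was named as a member, as one of the 3 genes most like it, or as one of the 2 of smallest p in a list. Members and lists were chosen with earlier results of these data known. The script was tested on simulated data. The number of arrays limits the precision.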

Additional observations from a re-analysis of the deposited data

Results flagged for a closer look

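In 5 of 96 group-by-probe-set combinations a single rat stood apart from the other 6 of its group by Dixon's criterion, where chance would give about 4.8. Rat 8, given L-dopa after a lesion, was high at 2 Mgll probe sets: 10.16 at 1370831_at, with the next rat at 9.83, and 8.85 at 1388644_at, with the next at 8.51. Rat 1, lesioned and given both drugs, was high at Mgll 1375247_at with 8.80, the next rat being at 8.46. Rat 32, sham and given both drugs, was low at Mgll 1375355_at with 5.11 against 5.55. Rat 37, sham and given L-dopa, was high at Faah 1384341_at with 6.30 against 5.59. Without rat 8, the L-dopa difference in lesioned rats was 0.26 at Mgll 1388644_at and 0.20 at 1370831_at.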

How the results depend on the processing

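In 1100 recomputed counts, no endocannabinoid probe set was called in any of the 16 comparisons, and the smallest adjusted p of a member was 0.051 (Mgll 1375247_at, L-dopa in lesioned rats, without rat 22); leaving out each rat in turn gave 0 to 0 called. None of 23 followed changes (those with an unadjusted p under 0.05) changed sign. They were picked by a small p in these same data, so a kept sign was likely beforehand. Among changes not followed, Mgll 1388644_at and 1370831_at turned negative for both drugs against neither with the 3′ minus 5′ covariate (-0.02 and -0.01). The 3′ minus 5′ covariate moved most of the Mgll changes by more than 1.5 times. This covariate did the same for Cnr1 1369677_at with L-dopa or both drugs in lesioned rats. The smallest of the followed Mgll changes was then 0.0026, at 1370831_at for L-dopa alone in lesioned rats. For the L-dopa average in lesioned rats, the change was 0.02 at 1375247_at and at 1388644_at. Without rat 10, the Cnr1 1369677_at difference with L-dopa in lesioned rats was -0.16 rather than -0.26. Over all probe sets, counts called were few and unsteady: for L-dopa alone in lesioned rats 3, from 0 to 7 over other settings and up to 55 without rat 22; for both drugs 4 (0 to 8); for pramipexole with L-dopa 3 (0 to 6); for the L-dopa average 1 (0 to 4); for the added L-dopa average 7 (0 to 14) and the added pramipexole average 1 (0 to 6). Settings were no filter, a 60th percentile filter, quantile normalization, 16 added to the unlogged signal, an intensity trend, array weights, fewer arrays or groups, an array set term and 4 covariates (3′ minus 5′ signal and cortical, astrocyte and medium spiny neuron scores, the last 2 chosen after seeing the data). The comparisons across array sets could not be recomputed inside 1 set. No paired analysis was possible because rat numbers are not shared between groups.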
